A study of Mus musculus with 6 samples.

Results

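The 10 genes described here regulate lipid synthesis from sugar and sterol signals: Srebf1, Insig1, Insig2 and Scap of the SREBP system, Mlxipl, Mlx and Usf1 of the E-box binding factors, and the nuclear receptor genes Nr1h2, Nr1h3 and Rxra. They were chosen by name, for their roles, from the 21057 genes measured on the arrays, and 16 of the 41174 probes report them, 3 for Insig2, 2 each for Mlxipl, Mlx, Rxra and Insig1, and 1 each for the other 5 genes. Whether 1 of the Insig2 probes (A_52_P923173), which runs in the other genomic direction, reports Insig2 could not be settled. RNA came from abdominal white adipose tissue (WAT) of 30-wk-old female C57/BL6 mice, either hNAG-1 mice, which carry a transgene for human NAG-1 (also called GDF15), or wild-type (WT) mice. Each genotype was measured on 3 Agilent arrays, and each array held RNA pooled from 2 of 6 mice. The hNAG-1 mice were of 1 transgenic line, and by the study's methods the transgene is expressed in most tissues and highly in WAT.

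SREBP-1, the product of Srebf1, is made as a membrane-bound precursor of the endoplasmic reticulum that SCAP escorts to the Golgi for cleavage, while INSIG proteins hold SCAP back when sterols are plentiful. ChREBP, the product of Mlxipl, pairs with MLX on carbohydrate response elements and answers to glucose metabolites, and LXR receptors pair with RXR and answer to oxysterols. In adipose tissue and liver these factors share genes of fatty acid synthesis as targets, and Srebf1 itself is a known LXR target.

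The promoters of the 4 genes that differed most are shown because such factors bind their targets through short motifs near transcription starts. The sequences are the 150 bases before annotated starts, taken from RefSeq on build GRCm38.p6 and written along the gene's strand: Mlxipl at chr5:135089740-135089889 (plus strand) and chr5:135106741-135106890 (plus strand), Mlx at chr11:101087140-101087289 (plus strand), Insig1 at chr5:28071262-28071411 (plus strand) and Srebf1 at chr11:60210472-60210621 (minus strand, start 3 of 3). Capitals mark the E-box CACGTG in the first Mlxipl start, in Mlx and in Insig1, the sterol regulatory element TCACNCCAC in the second Mlxipl start, and a CCAAT box read on the opposite strand in Srebf1.
Mlxipl start 1: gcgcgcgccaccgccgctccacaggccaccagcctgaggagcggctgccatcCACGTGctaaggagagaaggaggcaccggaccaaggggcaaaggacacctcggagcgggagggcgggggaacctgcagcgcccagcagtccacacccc
Mlxipl start 2: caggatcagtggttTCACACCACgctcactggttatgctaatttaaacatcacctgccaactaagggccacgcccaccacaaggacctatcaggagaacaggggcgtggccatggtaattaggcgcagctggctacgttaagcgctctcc
Mlx: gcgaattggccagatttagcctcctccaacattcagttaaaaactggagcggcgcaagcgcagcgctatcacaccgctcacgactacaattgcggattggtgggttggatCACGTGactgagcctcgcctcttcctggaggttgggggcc
Insig1: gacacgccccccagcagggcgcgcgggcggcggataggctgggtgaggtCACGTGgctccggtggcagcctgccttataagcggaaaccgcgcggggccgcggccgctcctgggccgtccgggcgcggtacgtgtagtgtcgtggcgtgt
Srebf1 start 3: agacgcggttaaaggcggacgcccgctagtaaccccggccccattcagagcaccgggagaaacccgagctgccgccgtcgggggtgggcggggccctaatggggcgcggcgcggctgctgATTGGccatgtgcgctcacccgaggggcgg

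Motifs, 5 in all, were searched on both strands of RefSeq windows reaching from 250 bases before to 50 bases after each start. A gene counted if any of its windows matched, so genes with more annotated starts had more chances to match. CACGTG, the palindromic E-box that USF1, SREBP-1 and ChREBP with MLX can bind, was found for Mlxipl (98 bases before start 1), Mlx (40 bases before), Insig1 (101 bases before) and Scap (40 bases before start 2), that is in 4 of the 10 genes, and 8.09% of all 27025 genes with a window held it. TCACNCCAC was found for Mlxipl alone among the 10, 136 bases before start 2, and in 1.44% of all genes. CCAAT, the NF-Y motif, was found in 5 of the 10 genes and 41.1% of all genes, and GGGCGG, the Sp1 motif, in 7 of the 10 and 38.2% of all genes. The LXR element, searched only as the exact letters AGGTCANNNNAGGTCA, was found in none of the 10 and in 0.0148% of all genes. So rare a string could hardly be found in any 10 genes, so this miss says nothing about LXR sites. No motif overlapped another, and a match says only that these letters stand in the window. Only exact letters were searched, so a miss does not show that a promoter, such as that of Srebf1, lacks an element.

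**Figure D1:**
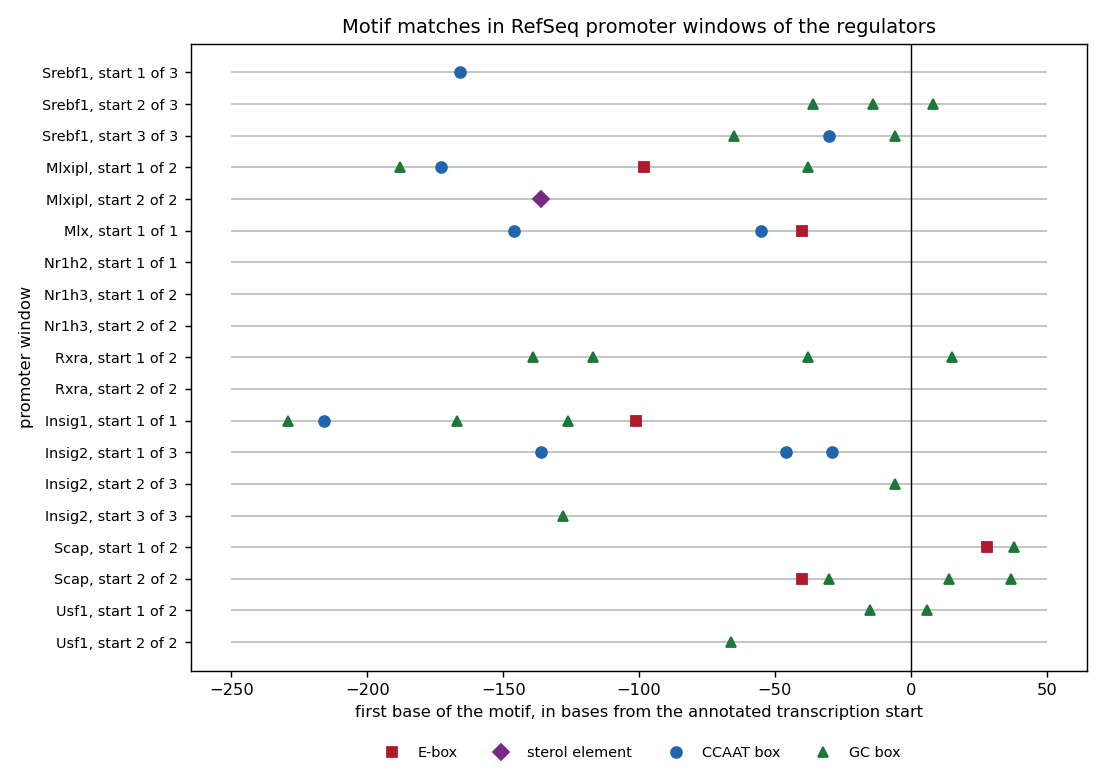
Motif matches in the promoter windows of the 10 regulators. Each row is 1 annotated start, the x axis is the distance in bases of the motif's first base from the start, and symbols stand for the E-box, the sterol element, the CCAAT box and the GC box. E-boxes stand in windows of Mlxipl, Mlx, Insig1 and Scap, and the exact letters of the sterol element stand only in the second Mlxipl window.

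Values below are log2 of the processed signal relative to the 75th percentile of its array, so 1 unit is a 2-fold difference. The percentile was 897, 739 and 656 signal units on the hNAG-1 arrays and 1028, 957 and 988 on the WT arrays, and pairs of arrays correlated at 0.965 to 0.988 over all genes. The 3 WT arrays and hNAG-1 replicate 1 were on 1 slide and hNAG-1 replicates 2 and 3 on another. No probe named for the human transgene was analysed here. The mouse gene Gdf15 was at -3.82, -3.39 and -3.20 in hNAG-1 mice and -2.24, -2.38 and -3.40 in WT mice, which does not check the transgene. All 16 probes were well above background on at least 3 arrays, 15 of them on all 6.

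Srebf1, Mlxipl, Mlx and Insig1 were higher in hNAG-1 mice, by 1.63 to 3.40 fold, with every hNAG-1 array above every WT array, while Nr1h2, Nr1h3, Rxra, Insig2, Scap and Usf1 overlapped between the genotypes. Of the 10 genes, 4 were higher at an unadjusted p under 0.05 and none was lower. Of all genes, 9.67% were higher and 3.62% were lower at that threshold. By array order, 4 of the 10 did not overlap upward, against 15.0% of all genes, and none downward, against 5.93%. Of the 16 probes, 7 were higher and none was lower at the unadjusted threshold (9.25% and 3.62% of all probes), and 8 lay above without overlap and none below (14.4% and 6.03%). After Benjamini-Hochberg adjustment over all 21057 genes (limma), none of the 10 and none of all genes passed 0.05, with a smallest adjusted p of 0.165. The 3 pools per genotype limit the precision.

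**Figure D2:**
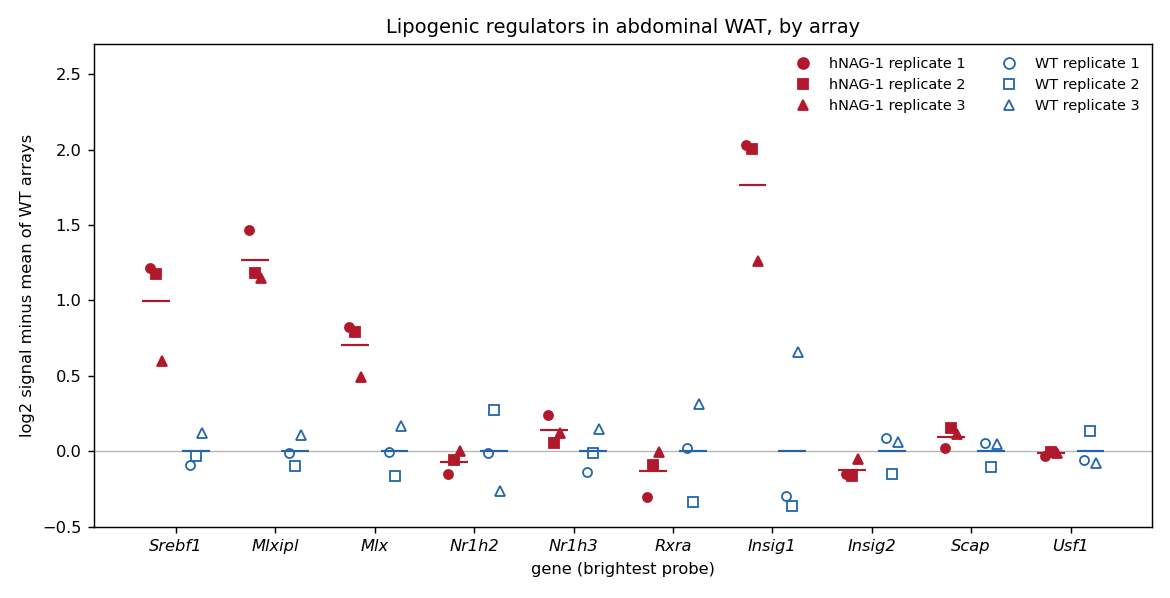
Log2 signal of each regulator's brightest probe on each array, minus the mean of the WT arrays. Filled red symbols are hNAG-1 pools, open blue symbols are WT pools, shapes mark replicates 1 to 3 and lines are group means (n = 3). Srebf1, Mlxipl, Mlx and Insig1 are separated, with means 1.00, 1.27, 0.71 and 1.76 above WT, and the other 6 genes overlap.

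Srebf1 encodes SREBP-1, which drives genes of fatty acid synthesis. Its probe (A_51_P401921, RefSeq transcript NM_011480, chromosome 11) was at 6.49, 6.45 and 5.87 in hNAG-1 mice and 5.18, 5.24 and 5.40 in WT mice. The lowest hNAG-1 array and the highest WT array were both replicate 3, and the groups did not overlap. Srebf1 averaged 6.27 ± 0.35 in hNAG-1 mice and 5.27 ± 0.11 in WT mice (SD, n = 3 each), a log2 difference of 1.00 (SE 0.20, 95% confidence interval 0.51 to 1.49) with an adjusted p of 0.20 by limma. In unscaled signal the order was less clear. The hNAG-1 arrays read 80667, 64450 and 38370 and the WT arrays 37266, 36251 and 41588, so that hNAG-1 replicate 3, the array with the lowest percentile, lay among the WT arrays. The single probe was not placed on an exon, and the isoforms of Srebf1 were not told apart.

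Mlxipl encodes ChREBP, the glucose-responsive partner of MLX, and had the smallest p of the 10 genes, the 10th smallest of all 21057. Its brightest probe (A_51_P456466, NM_021455, chromosome 5) was at 4.83, 4.54 and 4.51 in hNAG-1 mice and 3.35, 3.26 and 3.47 in WT mice. The second probe (A_52_P423188, AF245475) was at 1.25, 1.19 and 1.25 in hNAG-1 mice and -0.23, -0.19 and -0.13 in WT mice. Both probes put all hNAG-1 arrays more than 1 unit above all WT arrays. The log2 differences were 1.27 (SE 0.13, 95% confidence interval 0.94 to 1.60) and 1.41 (SE 0.098), with limma adjusted p-values of 0.165 over genes and 0.150 over probes. With trended and robust variances the adjusted p of Mlxipl was 0.0213, below the threshold, and it ranged up to 0.900 over 16 alternatives. With those variances 0.670% of all genes were called higher and 0.114% lower, and Mlxipl was the only one of the 10 by its brightest probe. At the level of probes 3 passed, both of Mlxipl and the second of Insig1. The share of all probes that passed with those variances was not counted, so this number has no yardstick.

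Mlx encodes the obligate partner of ChREBP. It was at 1.53, 1.5 and 1.2 in hNAG-1 mice and 0.70, 0.54 and 0.87 in WT mice (A_51_P261443, NM_011550, chromosome 11). The genotypes did not overlap, and replicate 3 was again the lowest hNAG-1 array and the highest WT array. The log2 difference was 0.71 (SE 0.15, 95% confidence interval 0.33 to 1.08, limma adjusted p = 0.206). A second Mlx probe (A_52_P309904, BC080768) was near background, at -4.74, -4.39 and -4.80 in hNAG-1 mice and -4.87, -4.88 and -5.30 in WT mice, a difference of 0.37 (SE 0.18) that turned to -0.38 with normexp background correction. In unscaled signal the brighter Mlx probe overlapped, at 2591, 2087 and 1506 in hNAG-1 mice and 1669, 1394 and 1805 in WT mice. Levels of different probes cannot be compared, only how their difference changed with genotype. Mlxipl minus Mlx was 3.22 ± 0.15 in hNAG-1 mice and 2.66 ± 0.064 in WT mice (log2, SD, n = 3 each), a change of 0.56 with p = 0.1 by a two-sided exact permutation test, the smallest p that 3 against 3 arrays can give, and 0.15 after adjustment over 3 pairs.

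Usf1, an E-box factor that acts on lipogenic promoters beside SREBP-1, was at -0.91, -0.88 and -0.89 in hNAG-1 mice and -0.94, -0.74 and -0.96 in WT mice. The hNAG-1 arrays lay inside the WT range, and the log2 difference was -0.01 (SE 0.11, 95% confidence interval -0.28 to 0.26, limma adjusted p = 0.969). Of 8 other MLX, MAX and USF family genes, none was higher and 1, Mlxip, was lower at an unadjusted p under 0.05 (9.67% and 3.62% of all genes), with a list median of 0.07 against 0.08 for all genes. Mlxip encodes MondoA, the paralog of ChREBP, and was at -0.10, -0.08 and -0.02 in hNAG-1 mice and 0.23, 0.24 and 0.12 in WT mice. The groups did not overlap, the log2 difference was -0.26 (SE 0.10), and the limma adjusted p was 0.366. Max, the shared partner of MYC family proteins, was at 0.27 (SE 0.12), Mxd1, a MYC antagonist, at 0.33 (SE 0.15) and Myc at -0.48 (SE 0.30), and none of the 3 passed the unadjusted threshold.

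Insig1 encodes a sterol-sensing retention protein of SCAP and is itself a known SREBP target. Its brightest probe (A_51_P290207, NM_153526, chromosome 5) was at 2.75, 2.72 and 1.98 in hNAG-1 mice and 0.42, 0.36 and 1.37 in WT mice. WT replicate 3 stood above the other WT arrays and hNAG-1 replicate 3 below the other hNAG-1 arrays, without overlap. The log2 difference was 1.76 (SE 0.36, 95% confidence interval 0.88 to 2.65, 3.40 fold, limma adjusted p = 0.202), the largest of the 10 genes. It was 2.09 without WT replicate 3 and 2.02 without hNAG-1 replicate 3. The second Insig1 probe (A_52_P393392) is shown because its 60 bases cover 473 bases of genome, chr5:27107061-27107533 on build mm7, and so cross an intron of the spliced transcript.
Insig1 probe A_52_P393392: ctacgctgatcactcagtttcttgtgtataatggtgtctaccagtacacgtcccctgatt
This probe was at 1.09, 1.07 and 0.35 in hNAG-1 mice and -0.99, -1.14 and -0.41 in WT mice, with a log2 difference of 1.68 (SE 0.29, limma adjusted p = 0.178 over probes, 0.0448 with trended and robust variances). Both Insig1 probes had the same order of arrays between the genotypes. In unscaled signal the brightest probe read 6027, 4878 and 2588 in hNAG-1 mice and 1378, 1228 and 2561 in WT mice, again without overlap.

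Insig2 encodes the other INSIG protein. It was at 2.52, 2.51 and 2.63 in hNAG-1 mice and 2.77, 2.53 and 2.74 in WT mice, with overlapping arrays and a log2 difference of -0.12 (SE 0.12, 95% confidence interval -0.41 to 0.17, limma adjusted p = 0.681). Its second probe (A_52_P113250) differed by -0.08 (SE 0.13) and its remaining probe (A_52_P923173), close to background and of unsettled target, by 0.47 (SE 0.44). Insig1 minus Insig2 was -0.07 ± 0.50 in hNAG-1 mice and -1.96 ± 0.52 in WT mice (SD, n = 3 each), a change of 1.89 with an exact permutation p of 0.1, the smallest possible, and 0.15 adjusted over 3 pairs. Scap, the escort of SREBP precursors, was at 3.40, 3.53 and 3.49 in hNAG-1 mice and 3.43, 3.28 and 3.43 in WT mice. The Scap arrays overlapped, with a log2 difference of 0.10 (SE 0.11, 95% confidence interval -0.17 to 0.36, limma adjusted p = 0.723).

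**Figure D3:**
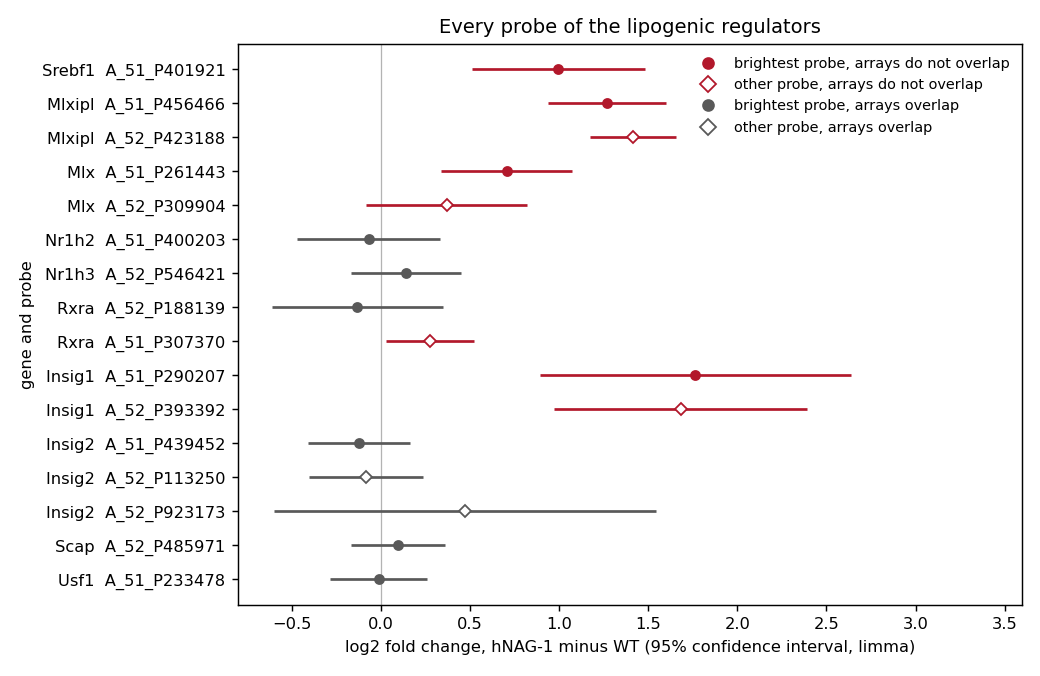
Log2 fold change, hNAG-1 minus WT, of all 16 probes with 95% confidence intervals from limma (n = 3 arrays per genotype). Filled circles are the brightest probe of a gene, open diamonds the other probes, and red marks probes whose hNAG-1 arrays all exceed the WT arrays. Both probes of Mlxipl and of Insig1 lie clear of 0, whereas the 2 Rxra probes fall on opposite sides of it.

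Nr1h3 and Nr1h2 encode LXRα and LXRβ. Nr1h3 was at 3.57, 3.38 and 3.45 in hNAG-1 mice and 3.19, 3.31 and 3.48 in WT mice, a log2 difference of 0.14 (SE 0.12, 95% confidence interval -0.17 to 0.45, limma adjusted p = 0.656). Nr1h2 was at 1.03, 1.12 and 1.19 in hNAG-1 mice and 1.17, 1.46 and 0.92 in WT mice, a log2 difference of -0.07 (SE 0.16, 95% confidence interval -0.47 to 0.33, limma adjusted p = 0.873). Both LXR genes overlapped between genotypes, and the difference of Nr1h3 over Nr1h2 changed by 0.21 (exact permutation p = 0.5, also 0.5 adjusted over 3 pairs). Rxra, their partner, was at 4.03, 4.24 and 4.33 in hNAG-1 mice and 4.36, 4.0 and 4.65 in WT mice on the brighter probe, a log2 difference of -0.13 (SE 0.20, 95% confidence interval -0.62 to 0.35, limma adjusted p = 0.793). The dimmer Rxra probe (A_51_P307370, of the same transcript) was at -1.34, -1.37 and -1.33 in hNAG-1 mice and -1.58, -1.59 and -1.71 in WT mice. Here the arrays did not overlap, as for 14.4% of all probes, and the difference was 0.28 (SE 0.10, limma adjusted p = 0.359), so the 2 probes of Rxra gave opposite signs.

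Known targets of these factors were counted next, from lists chosen by role but, like the 10 genes, with earlier results of these data known, so the counts are a description. All 16 targets of SREBP-1 in fatty acid synthesis were above 0, 15 at an unadjusted p under 0.05 (9.67% of all genes) and 15 without overlap (15.0% of all genes), with a median log2 difference of 1.45 against 0.08 for all genes. Elovl6, which elongates palmitate, was at 6.94, 6.94 and 6.53 in hNAG-1 mice and 5.06, 4.16 and 4.74 in WT mice, a difference of 2.15 (SE 0.27). Acly, the ATP citrate lyase, was at 6.11, 6.19 and 5.81 in hNAG-1 mice and 4.04, 3.79 and 4.36 in WT mice, a difference of 1.98 (SE 0.19). Acaca, the acetyl-CoA carboxylase of fatty acid synthesis, was at 4.77, 4.76 and 4.65 in hNAG-1 mice and 3.43, 3.07 and 3.12 in WT mice. For Acaca the difference was 1.52 (SE 0.14), and the citrate carrier Slc25a1 differed by 1.51 (SE 0.18). Fasn, the fatty acid synthase, and Scd1, the main stearoyl-CoA desaturase of fat, had smaller differences of 0.47 (SE 0.12) and 0.55 (SE 0.11). Pnpla3, an acyl hydrolase, was the 1 target with overlapping arrays, at 1.02 (SE 0.43), because WT replicate 3 stood at 3.55 beside 3.43 in hNAG-1 replicate 1. All of these adjusted p-values were 0.165 or above (limma). With trended and robust variances 7 of the 16 passed, all as higher, where 0.670% of all genes passed as higher and 0.114% as lower.

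Of 14 measured ChREBP targets, 13 were above 0 and 10 were higher at an unadjusted p under 0.05 (9.67% of all genes), the same number as did not overlap (15.0% of all genes), with a median of 0.74. Elovl6, Acacb and Fasn, which also stand in the SREBP-1 list, are among them, so the lists are not independent. Slc2a5, the fructose transporter GLUT5, was at 3.61, 3.90 and 3.22 in hNAG-1 mice and 1.00, 1.24 and 1.77 in WT mice, a log2 difference of 2.24 (SE 0.27, limma adjusted p = 0.165). Thrsp, the lipogenic protein Spot 14, differed by 1.38 (SE 0.21) and Acacb, the mitochondrial acetyl-CoA carboxylase, by 1.88 (SE 0.28). Txnip, a glucose-induced target, was at 5.61, 5.13 and 5.54 in hNAG-1 mice and 5.34, 5.30 and 5.13 in WT mice. Its groups overlapped, with a difference of 0.17 (SE 0.16). Slc2a4, the insulin-responsive transporter GLUT4, differed by 0.77 (SE 0.23).

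**Figure D4:**
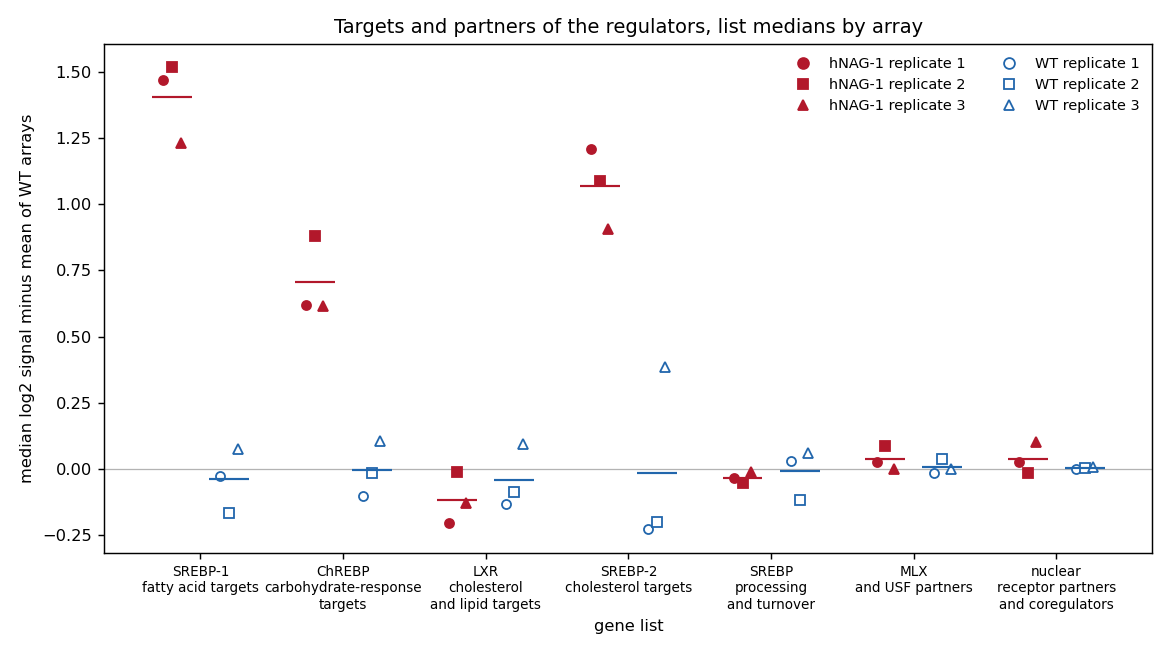
Median log2 signal of each gene list on each array, after subtracting each gene's WT mean. Filled red symbols are hNAG-1 pools, open blue symbols are WT pools, and lines are group means (n = 3). The SREBP-1, ChREBP and SREBP-2 target medians of all hNAG-1 arrays, from 0.61 to 1.52, exceed those of all WT arrays, from -0.23 to 0.38, while the other 4 lists overlap.

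The listed LXR targets, of cholesterol and lipid handling, were divided. Srebf1 and the shared genes of fatty acid synthesis, given above, were not in this list. Of 12 measured, 6 were above 0 and 6 below, 2 were higher and 3 were lower at an unadjusted p under 0.05 (9.67% and 3.62% of all genes), and the median was -0.07. Abcg1, which exports cholesterol to HDL, was at -0.19, 0.02 and 0.32 in hNAG-1 mice and 1.18, 1.23 and 1.35 in WT mice. Every hNAG-1 array was below every WT array, with a log2 difference of -1.2 (SE 0.16, limma adjusted p = 0.165). Apoe, which encodes apolipoprotein E, differed by -0.51 (SE 0.16) and Pltp, the phospholipid transfer protein, by -0.41 (SE 0.13). Lpcat3, which places polyunsaturated chains on phospholipids, was at 2.83, 2.72 and 2.54 in hNAG-1 mice and 1.78, 1.89 and 1.98 in WT mice, a difference of 0.81 (SE 0.13, limma adjusted p = 0.166). Abca1, the cholesterol efflux pump, was at 3.43, 3.11 and 3.13 in hNAG-1 mice and 3.25, 3.01 and 3.34 in WT mice, and its difference of 0.02 (SE 0.15) was within the spread of the arrays.

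Most targets of SREBP-2, the cholesterol-synthesis factor that INSIG and SCAP also govern, lay above WT levels. Of 22, 20 were above 0, 17 were higher and 1 was lower at an unadjusted p under 0.05 (9.67% and 3.62% of all genes), 15 lay above and 1 below without overlap (15.0% and 5.93%), and the median was 1.06. Mvd, of the mevalonate pathway, was at 1.61, 1.78 and 1.40 in hNAG-1 mice and -0.58, -0.82 and -0.01 in WT mice, a difference of 2.07 (SE 0.24). Fdps, the farnesyl diphosphate synthase, differed by 1.61 (SE 0.19), Cyp51, the lanosterol demethylase, by 1.72 (SE 0.23), and Fdft1, the squalene synthase, by 1.08 (SE 0.16). The list median by array was 1.21, 1.09 and 0.91 in hNAG-1 mice and -0.23, -0.20 and 0.38 in WT mice. As for Insig1, replicate 3 was the lowest hNAG-1 array and the highest WT array. Srebf2, which encodes SREBP-2, was at 2.39, 2.76 and 2.66 in hNAG-1 mice and 2.69, 2.69 and 2.91 in WT mice on its brightest probe, a difference of -0.16 (SE 0.15). A second Srebf2 probe (A_52_P665742) was higher without overlap, by 0.55 (SE 0.13, limma adjusted p = 0.228 over probes), and the third differed by 0.07 (SE 0.11).

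Genes of SREBP processing and turnover, a list that also held Srebf2 itself, were called about as often as all genes. Of 20, 8 were above 0 and 12 below, 2 were higher and 1 was lower at an unadjusted p under 0.05 (9.67% and 3.62% of all genes), and the median was -0.06. Sec24d, a cargo adaptor of COPII vesicles, was at 0.52, 0.23 and 0.42 in hNAG-1 mice and 1.08, 0.80 and 1.11 in WT mice, a difference of -0.61 (SE 0.14, limma adjusted p = 0.225). Sar1b, the COPII GTPase, differed by 0.32 (SE 0.11), Pgrmc1, a membrane heme protein that binds INSIG1, by 0.33 (SE 0.12), and Sec23a, of the COPII coat, by -0.30 (SE 0.13). Mbtps1 and Mbtps2, the Golgi proteases that cleave SREBPs, were at -0.11 (SE 0.17) and -0.20 (SE 0.16), both with overlap, and the Mbtps2 probe was near background, at -4.40 to -4.92 in hNAG-1 mice and -4.45 to -4.50 in WT mice. Among 17 nuclear receptor partners and coregulators 1 was higher and none was lower at an unadjusted p under 0.05 (9.67% and 3.62% of all genes), so that no excess over all genes was seen, with a median of -0.01. The gene was Ppargc1a, the coactivator PGC-1α, at -0.40, -0.28 and -0.46 in hNAG-1 mice and -0.99, -0.83 and -1.33 in WT mice, a difference of 0.67 (SE 0.16, limma adjusted p = 0.231). Its relative Ppargc1b overlapped, at 0.54 (SE 0.26), as did the acetyltransferase gene Ep300, at -0.39 (SE 0.19), whereas the coactivator Ncoa1, at 0.23 (SE 0.12), did not overlap.

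**Figure D5:**
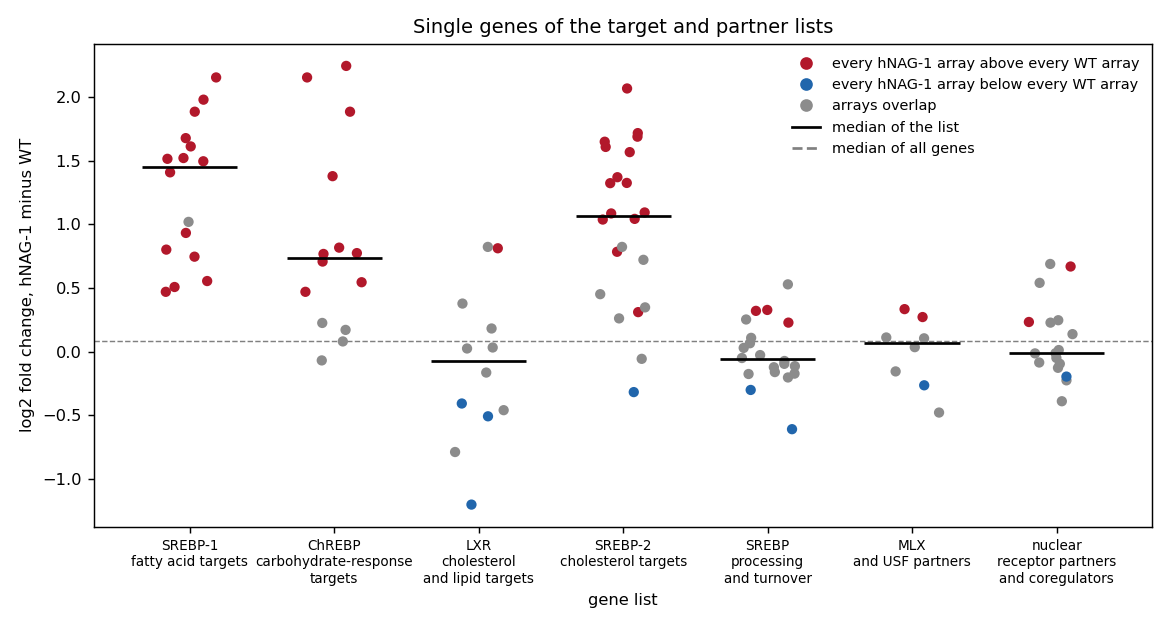
Log2 fold change, hNAG-1 minus WT, of each gene in the 7 target and partner lists. Red and blue points are genes whose hNAG-1 arrays lie all above or all below the WT arrays, grey points overlap, black lines are list medians and the dashed line is the median of all genes, 0.08. The medians of the SREBP-1, SREBP-2 and ChREBP targets are 1.45, 1.06 and 0.74, and the listed LXR targets lie on either side of 0.

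Markers of other cell types were counted beside these genes, and none passed the adjusted threshold. Of 14 adipocyte markers, 12 were above 0, 4 were higher and none was lower at an unadjusted p under 0.05 (9.67% and 3.62% of all genes). Their median was 0.27, but 0.06 with quantile normalization, and log2 of their summed level was 11.07, 11.21 and 11.30 in hNAG-1 mice and 10.74, 10.88 and 11.01 in WT mice, without overlap. The defining markers Adipoq, Plin1 and Fabp4 were above the 75th percentile in every pool, with differences of 0.11 (SE 0.12), 0.34 (SE 0.18) and 0.41 (SE 0.15). Among the other adipocyte markers, Retn was at 0.66 (SE 0.19) and Cebpa at 0.35 (SE 0.14), whereas Lep, which encodes leptin, was at 3.09, 2.65 and 3.10 in hNAG-1 mice and 3.13, 3.44 and 4.69 in WT mice, a difference of -0.80 (SE 0.43). Of 14 macrophage markers 12 were below 0 and 4 were lower at an unadjusted p under 0.05 (3.62% of all genes), among them Cd163 at -0.82 (SE 0.29). Without overlap, 6 of the 14 lay below and none above (5.93% and 15.0% of all genes). Their median was -0.29, or -0.16 with normexp. Their medians by array did not overlap, at -0.30, -0.33 and -0.24 in hNAG-1 mice and 0.19, -0.15 and -0.06 in WT mice. Their summed levels overlapped, at 7.26 to 7.29 in hNAG-1 mice and 7.20 to 7.52 in WT mice. Of 12 fibroblast and matrix markers 11 were below 0 and 4 were lower (3.62% of all genes), among them Col6a1 at -0.87 (SE 0.12). Without overlap, 7 of the 12 lay below and none above (5.93% and 15.0% of all genes), and the median was -0.42. The medians by array did not overlap, at -0.41, -0.64 and -0.26 in hNAG-1 mice and 0.11, -0.13 and -0.04 in WT mice. The sums overlapped, at 8.79 to 9.03 in hNAG-1 mice and 8.98 to 9.17 in WT mice. None of 7 mesothelial markers passed the unadjusted threshold, and their sums were 5.71 to 6.08 in hNAG-1 mice and 6.13 to 6.16 in WT mice. All 11 T and B cell markers were above 0, none at an unadjusted p under 0.05, with a median of 0.49 and medians by array of 0.02, 1.12 and 0.36 in hNAG-1 mice and 0.05, 0.12 and -0.12 in WT mice. Of 10 endothelial markers none was higher and 1 was lower at the unadjusted threshold, with a median of -0.10. The 8 brown and beige adipocyte markers stood apart in WT replicate 2, with medians of 0.11, 0.04 and -0.33 in hNAG-1 mice and -0.77, 1.15 and -0.44 in WT mice. Liver, pancreas and muscle markers also varied between single pools, as for Alb at 5.16 in hNAG-1 replicate 2 and 7.17 in WT replicate 2. The part of these cells in the values of Srebf1, Mlxipl, Mlx, Insig1 and Abcg1 was not tested, and in bulk tissue a different number of cells of a type cannot be told apart from a different RNA level per cell.

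The slide could be held fixed with only 1 hNAG-1 array. Within the slide that held both genotypes, hNAG-1 replicate 1 exceeded the 3 WT arrays by 1.22 for Srebf1, 1.47 for Mlxipl, 0.83 for Mlx and 2.03 for Insig1, each at least as large as over all 6 arrays, with limma adjusted p-values from 0.684 to 0.765 (the lone hNAG-1 array was assumed to vary like the WT arrays). These 4 genes kept a positive sign under all 16 alternatives, from 0.85 to 1.22 for Srebf1, 1.15 to 1.47 for Mlxipl, 0.54 to 0.83 for Mlx and 1.59 to 2.09 for Insig1.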

How the data were processed

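RNA from abdominal WAT of female hNAG-1 and WT mice was measured on 6 Agilent arrays, each of RNA pooled from 2 mice. The authors deposited the scanner output of Agilent Feature Extraction 9.5 (version from the submitters' processing notes), with spot intensity on a linear scale, and a table whose 45018 rows equal the processed signal on every array, which leaves the deposited intensity background-subtracted but not normalized between arrays. The methods of the paper name a different array platform. The pools are of different mice, so p-values measure the spread between pools.

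After removal of 1639 control spots and of outlier spots, repeated spots were averaged per probe, and values were expressed as log2 signal minus the array's 75th percentile. Of 41174 probes, 22951 were named by accession, 6659 by symbol and 3109 by synonym in a RefSeq table, and 8455 kept the file's name. Probes well above background on at least 3 arrays with a value on all arrays (31451) were tested, and a gene was represented by its brightest probe (21057 genes). The two-sided comparison of genotypes used limma 3.58.1 (lmFit, eBayes) in R 4.3.3, and p-values were adjusted by Benjamini-Hochberg with a threshold of 0.05. Pairs of genes were compared by exact permutation. The fit was tested on simulated data with independent noise for each gene and no slide difference. That test does not cover the layout of the slides here.

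The members and gene lists were chosen with earlier results of these data known. The text names all members and their probes, from each pathway list the 4 genes of largest moderated t, the adipocyte markers Adipoq, Plin1 and Fabp4, and 5 genes whose arrays resemble Srebf1, Mlxipl and Insig2. Fasn, Scd1, Pnpla3, Txnip, Slc2a4, Abca1, Srebf2, Mbtps1, Mbtps2, Lep, Retn, Cebpa, Cd163, Col6a1 and Alb were added after their values were seen. The values of 1 gene are not reported here. Results were recomputed with quantile normalization, normexp correction at an offset of 50, 2 other filters for dim probes, probes averaged per gene, trended and robust variances, the slide as a fixed or random block, the slide with both genotypes alone, the replicate number as a block, and each array left out in turn.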

Additional observations from a re-analysis of the deposited data

How the results depend on the processing

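The number of regulators higher at an unadjusted p under 0.05 was 4 under each of 16 alternatives, and none was lower. Over the 10 genes, 151 of 160 alternative values kept their direction and side of the threshold, and over the probes 225 of 239. The direction turned for genes near 0. With normexp background correction, which moved the median of all genes to -0.19, Insig2 was at 0.056, Nr1h2 at 0.11 and Rxra at 0.036, and the dim probes of Insig2 (A_52_P923173), Mlx (A_52_P309904) and Rxra (A_51_P307370) were at -0.35, -0.38 and -0.020. When probes were averaged per gene, Insig2 was at 0.090 and Rxra at 0.072. The slide as a fixed block, or the shared slide alone, put Insig2 A_52_P923173 at -0.29. Without WT replicate 2, Nr1h2 was at 0.068 and Usf1 at 0.055, and without WT replicate 3, Rxra was at 0.023. With 1 array left out Nr1h2 ranged from -0.20 to 0.068, Rxra from -0.301 to 0.023 and Usf1 from -0.053 to 0.055. Relative to the median of all genes, normexp gave 1.40 for Srebf1, 1.65 for Mlxipl, 0.95 for Mlx and 1.95 for Insig1.

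Counts and list medians moved more. With trended and robust variances, 141 genes passed the adjusted threshold as higher and 24 as lower (0.670% and 0.114% of all genes). Among the higher genes was 1 of the 10 regulators. In the separate fit over probes 3 of the regulators' probes passed, and the share of all probes was not counted. Of the lists, 7 of 16 SREBP-1, 5 of 14 ChREBP, 9 of 22 SREBP-2 and 1 of 12 LXR targets passed as higher. As lower, 1 LXR target and 2 of 12 fibroblast and matrix markers passed. At an unadjusted p under 0.05, the number of all genes that were higher was 352 with normexp, 903 with the slide as a fixed block and 613 on the shared slide, against 2036 in the fit reported, and 117 were lower with normexp, against 763. Leaving out 1 array gave 1076 (without hNAG-1 replicate 2) to 2563 higher and 497 (without WT replicate 1) to 1171 (without WT replicate 3) lower. The SREBP-1 median was 1.30 with quantile normalization and 1.60 with normexp (1.29 to 1.51 with 1 array left out), and the ChREBP median 0.58 with quantile normalization (0.52 to 0.92). The LXR median was -0.21 with the mean of probes and -0.20 with the slide fixed or alone. The MLX and USF partner median was 0.011 with quantile normalization, 0.15 with normexp and 0.026 with the slide fixed or alone (-0.0038 to 0.11). The nuclear receptor partner median was 0.074 with normexp and 0.080 with the mean of probes (-0.0096 to 0.054), and the SREBP processing median 0.055 and 0.047 (-0.13 to -0.016). The causes were not tested.

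Genotypes share replicate numbers, but same-numbered arrays deviated together with r = 0.098, 0.51 and 0.095, not all above 0.1, and not every array correlated best with its own number. With the replicate number as a block, 1652 genes were higher and 861 lower at an unadjusted p under 0.05, none at an adjusted p, and no call on the 10 regulators changed. Signal over background limits the dim Mlx and Insig2 probes.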

Other observations

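The genes whose signal over the 6 arrays most resembled a regulator's were listed from all genes, as a description, since arrays of 2 genotypes share the genotype difference. For Srebf1 they were Aco1 (Pearson r 0.996), Naxe (0.995), Catsper2 (0.993), Stard7 (0.993) and Rassf3 (0.993), of which Rassf3 had the largest log2 difference between hNAG-1 and WT mice, 1.41 (SE 0.26). For Mlxipl they were Gsta4 (0.998), Noa1 (0.997), Thtpa (0.996), Pyurf (0.996) and Cryz (0.995), with log2 differences of 0.31 to 0.57. For Insig2, the regulator with the most negative moderated t, they were Rgma (0.998), Zfp236 (0.997), Alox5 (0.995), Clec10a (0.993) and Arrb2 (0.993), with log2 differences of -0.32 to -0.13.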
